A study of Mus musculus with 4 samples.

Results

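The 238 well-expressed long noncoding RNAs (lncRNAs) of this experiment were the rows of the gene table with the biotype lncRNA and at least 100 reads in each of the 4 libraries. They were drawn from 1278 lncRNA rows among 15575 listed genes. The libraries were total RNA, after removal of ribosomal RNA, from adherent peritoneal macrophages of male C57BL/6 mice aged 8 to 12 weeks. The AGEs group (2 libraries) came from mice given AGEs, bovine serum albumin that had been modified with dehydroascorbic acid (DHA), and the BSA group (2 libraries) from mice given unmodified bovine serum albumin. Either protein was injected into a vein at a daily dose of 10 mg/kg, starting 24 h ahead of thioglycollate (TG), an irritant injected into the peritoneum to draw in monocytes and macrophages. The cells of both groups were collected 72 h after TG. The study calls the libraries biological duplicates, but whether a library held cells of 1 mouse or of several is not stated. The p-values of the gene tests below therefore rest on the spread between duplicates, in part shared across genes. The permutation p-values compare the ways to divide the 4 libraries into groups of 2.

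An lncRNA is a long transcript that is not translated into a known protein. Some lncRNAs stay in the nucleus, where they scaffold bodies such as speckles and paraspeckles or silence genes on their own chromosome, and others act in the cytoplasm, where they bind microRNAs or proteins. Many are also carriers, since small nucleolar RNAs (snoRNAs) and microRNAs (miRNAs) are cut out of their introns or exons. In macrophages, lncRNAs are known both as structural RNAs of the nucleus and as transcripts that change with inflammatory activation.

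The libraries held 23079245 and 24472926 counts in the AGEs group and 17773088 and 22146761 counts in the BSA group. BSA replicate 1, the shallowest library, stood apart on the first principal component of all genes, at 34.6 against -16.9 to -5.08 for the other 3 libraries. The summed level of 7 macrophage markers was 14710 and 15572 CPM (counts scaled to a common library size) in the AGEs libraries and 17700 and 14031 in the BSA libraries. The summed level of T cell markers was at most 0.680 CPM in any library, with 1 of 6 markers listed. The study's threshold was a more than 1.5-fold change at an unadjusted p under 0.05, which 0.945% of all genes tested passed as lower and 0.825% as higher. The 4 listed dendritic cell markers summed to 6.86 and 10.1 CPM in the AGEs libraries and 15.8 and 13.1 in the BSA libraries, and 3 of them passed as lower. Mast cell and basophil markers, 7 of 10 listed, summed to 10.9 and 11.2 CPM in the AGEs libraries and 4.37 and 9.47 in the BSA libraries, with 2 past the threshold as higher. The 5 B cell markers, all listed, summed to 73.8 and 95.7 CPM in the AGEs libraries and 61.3 and 76.7 in the BSA libraries. Of the mesothelial and fibroblast markers 1 passed as lower, and of the B cell, neutrophil and eosinophil markers 0 passed. The part of other cell types in the values below was not tested. In such bulk RNA, fewer cells of a type and less RNA per cell cannot be told apart.

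Because membership needed 100 reads in every library, levels were part of the choice and are given as a description. The lncRNAs closest to the limit inside it were 6430590A07Rik, Gm32100 and LOC115487206, each with 100 reads in its lowest library. Just outside it were Gm30368 with 99 reads and 1600020E01Rik and Gm26947 with 98 reads each. By their names, 111 of the 238 were predicted genes with the prefix Gm, 48 had a LOC identifier, 39 were RIKEN clones and 40 had another name. The 40 with another name had a median of 13.5 TPM (the authors' values, scaled by transcript length and depth), against 3.86, 3.27 and 4.63 TPM for the Gm, LOC and RIKEN names. In RefSeq (GRCm38.p6), 237 of the 238 were matched. RefSeq classed 230 of them as lncRNA, 6 as protein-coding (among them 1810058I24Rik, Btbd19, 0610012G03Rik, Gm10033 and BC029722) and 1 as a pseudogene (Ndufb1-ps).

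Malat1 and Neat1 stood far above the remaining 236 lncRNAs. Malat1, the abundant RNA of nuclear speckles (chromosome 19, 5795690 to 5802672, minus strand), had 3157 and 2925 TPM in the AGEs libraries and 3643 and 3195 TPM in the BSA libraries. Among all genes it ranked 16 or 17 by TPM in each library, and number 3 by reads in each. Neat1, the scaffold of paraspeckles (chromosome 19, 5824708 to 5845480, minus strand), had 661 and 327 TPM in the AGEs libraries and 402 and 363 TPM in the BSA libraries. It ranked 2 among the lncRNAs in all 4 libraries, although its rank among all genes ranged between 63 and 181.

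**Figure D1:**
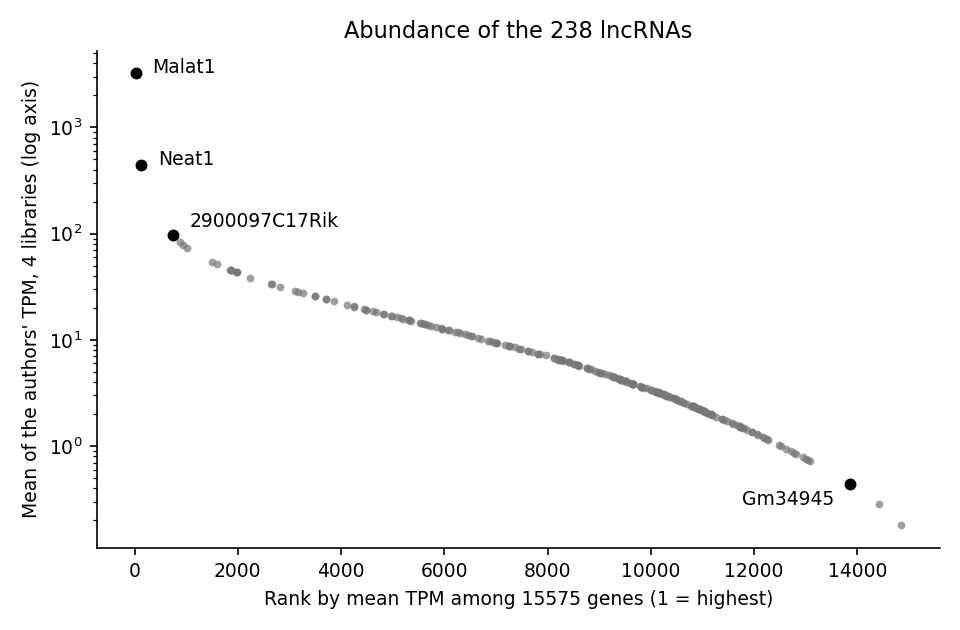
Mean TPM of each of the 238 lncRNAs over the 4 libraries (vertical log axis) against its rank by mean TPM among all 15575 listed genes (horizontal axis); each point is 1 lncRNA. Malat1 (3230 TPM) and Neat1 (438 TPM) lie above all others, 2900097C17Rik follows at 96.3 TPM, and most lie between 1 and 10 TPM.

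The median of the 238 was 4.44 TPM, against 18.0 TPM for the 9028 protein-coding genes that met the same limit of 100 reads. Of the lncRNAs, 2 were above 100 TPM, 66 above 10 TPM, 161 between 1 and 10 TPM and 11 below 1 TPM, with the lowest at 0.18 TPM. In total 5 of them were among the 1000 genes of highest TPM. Mean reads per lncRNA ran between 110 and 332001, with a median of 300. Long transcripts ranked higher by reads than by TPM, which divides by length. Kcnq1ot1, an imprinted antisense RNA, was number 8 of the 238 by mean reads with 3994 but had only 3.26 TPM. LOC115488151, which overlaps Lhfpl2 on the same strand, was number 3 of the 238 by reads with 9639 and number 13 by TPM with 43.6.

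The start of Malat1 is shown because this RNA alone took 56.4% to 57.5% of all reads of the 238 lncRNAs. The window (RefSeq, GRCm38.p6, chr19:5802623-5802922, minus strand) holds 250 bases before the start in lower case and the first 50 bases of the transcript in capitals.
Malat1: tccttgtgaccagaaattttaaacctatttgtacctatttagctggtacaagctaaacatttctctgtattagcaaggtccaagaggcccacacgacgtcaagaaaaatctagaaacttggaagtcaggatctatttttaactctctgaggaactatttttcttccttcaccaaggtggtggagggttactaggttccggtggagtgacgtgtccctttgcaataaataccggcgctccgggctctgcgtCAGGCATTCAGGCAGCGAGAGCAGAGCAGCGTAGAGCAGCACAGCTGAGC

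A window of this kind was available for 169 of the 238 lncRNAs and for 27025 genes in all. A gene counted as holding a motif if any of its annotated start windows held it on either strand. Genes with several annotated starts therefore had more chances, for which no correction was made. The TATA box letters TATAAA were found for 17.8% of the lncRNAs with a window and 15.7% of all genes with one. The CCAAT box letters CCAAT were found for 27.8% of these lncRNAs and 41.1% of all these genes, and the GC box letters GGGCGG for 33.1% and 38.2%. For the AP-1 site TGAGTCA the shares were both 5.9%, and for the PU.1 site GAGGAAGT, named after the macrophage factor, 4.7% and 3.7%. None of these 5 motifs overlaps another by containing it. The Malat1 window held none of the 5 in these letters. The median GC content, averaged over the windows of each gene, was 50.7% for the lncRNAs and 52.8% for all genes with a window.

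Taken by share of the sequencing, the 238 lncRNAs held 2.71% and 2.50% of all counts in the AGEs libraries and 2.76% and 2.72% in the BSA libraries. The difference between the group means was -0.13 percentage points, with an exact permutation p of 0.33 (two-sided), the smallest p that 2 against 2 libraries can give. It was -0.028 without AGEs replicate 2 and -0.24 without AGEs replicate 1. Malat1 alone took 1.53% and 1.42% of counts in the AGEs libraries and 1.59% and 1.56% in the BSA libraries (exact permutation p = 0.33). Neat1 took 0.449% and 0.403% against 0.426% and 0.447%, with overlapping groups (exact permutation p = 1). The remaining 236 lncRNAs together took 0.733% and 0.680% in the AGEs libraries against 0.746% and 0.710% in the BSA libraries (exact permutation p = 0.667). In every library Malat1 and Neat1 together made up 72.8% to 73.9% of the lncRNA counts.

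On the CPM scale, after TMM scaling between libraries, Malat1 had 15414 and 14299 CPM in the AGEs libraries against 15597 and 15659 in the BSA libraries. Both AGEs libraries lay below both BSA libraries, with AGEs replicate 1 close to them. Its log2 fold change, AGEs over BSA, was -0.07 (SE 0.09, 95% interval -0.27 to 0.13, edgeR quasi-likelihood test, adjusted p = 0.942). Neat1 had 4522 and 4059 CPM in the AGEs libraries against 4188 and 4490 in the BSA libraries, with interleaved groups. Its log2 fold change was -0.02 (SE 0.09, interval -0.22 to 0.18, edgeR adjusted p = 0.990). Both intervals lie within 1.5-fold.

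The TPM of Neat1 did not follow its counts in 1 library. Read counts of Neat1 were 103559 and 98584 in the AGEs libraries and 75777 and 99074 in the BSA libraries. Per count of Malat1, Neat1 had 0.293 and 0.284 counts in the AGEs libraries and 0.269 and 0.287 in the BSA libraries. Per TPM of Malat1, it had 0.209 and 0.112 TPM in the AGEs libraries and 0.110 and 0.114 in the BSA libraries. The high value of 661 TPM in AGEs replicate 1 thus appears in the TPM column and not in the counts, and the comparison below uses the counts. TPM of all genes also depend on the 7SL RNAs, whose share was 38.0% to 46.2% by TPM and 7.09% to 9.65% by counts.

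**Figure D2:**
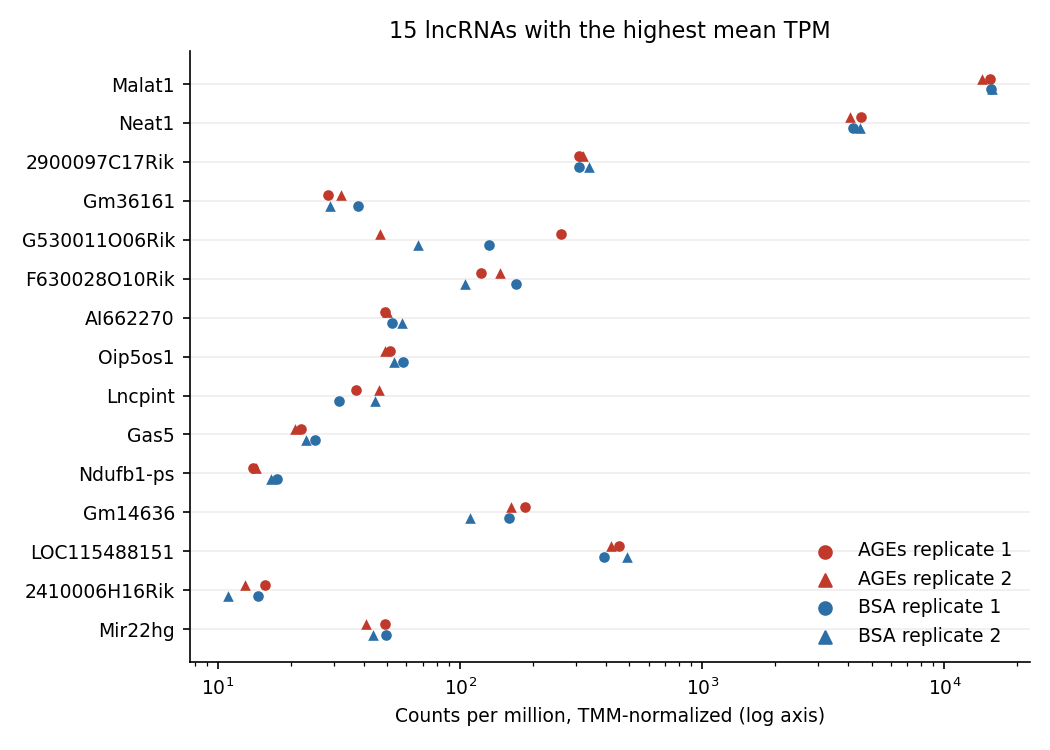
TMM-normalized CPM (horizontal log axis) of the 15 lncRNAs with the highest mean TPM, in the order of their TPM; red marks AGEs and blue BSA, circles are replicate 1 and triangles replicate 2. The 4 points of most rows lie close together, and those of G530011O06Rik spread between 46.5 and 260.

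Below Malat1 and Neat1, the order by TPM was partly fixed and partly not. 2900097C17Rik, a RIKEN clone (chromosome 2, 156388063 to 156392979), had 309 and 323 CPM in the AGEs libraries against 310 and 341 in the BSA libraries and ranked 3 or 4 among the lncRNAs in all libraries. Gm36161 had 28.5 and 32.1 CPM in the AGEs libraries against 37.8 and 29.1 in the BSA libraries and ranked 3 to 5. These neighbours swapped places between libraries, so their order is not beyond the spread. AI662270 (48.8 and 49.7 CPM in AGEs, 52.1 and 57.6 in BSA) and Oip5os1, also called Cyrano, a conserved RNA known for directing the decay of miR-7 (51.3 and 48.9 CPM in AGEs, 57.8 and 53.3 in BSA), ranked 5 to 9. Both were lower in both AGEs libraries than in both BSA libraries, by a log2 fold change of -0.16 (SE 0.11) and -0.15 (SE 0.10), and neither passed the test (edgeR adjusted p = 0.903 and 0.911).

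Of the 15 lncRNAs with the highest TPM, Gm14636 (chromosome X, 19156471 to 19237850) had the smallest p. It had 185 and 162 CPM in the AGEs libraries against 159 and 110 in the BSA libraries. The 2 AGEs libraries were above both BSA libraries, and AGEs replicate 2 exceeded BSA replicate 1 only narrowly. Its log2 fold change was 0.37 (SE 0.17, edgeR adjusted p = 0.885). The log2 fold change of Gm14636 was 0.65 without BSA replicate 1 and 0.14 without BSA replicate 2. Ndufb1-ps, named as a pseudogene of a complex I subunit, had 13.97 and 14.29 CPM in the AGEs libraries against 17.6 and 16.5 in the BSA libraries. Its groups did not overlap, and its log2 fold change of -0.27 (SE 0.17) did not pass the test (edgeR adjusted p = 0.902).

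Across the 238 lncRNAs, the comparison of AGEs with BSA gave 1 lncRNA past the study's threshold of a more than 1.5-fold change at an unadjusted p under 0.05. That is 0.42% of them, against 1.77% of the 14181 genes tested, 0.399% of the protein-coding genes with at least 100 reads in each library and 4.83% of the 891 other lncRNAs tested. The lncRNA was Gm34945, lower in AGEs. Of all genes tested, 0.825% passed as higher and 0.945% as lower. Which lncRNAs passed changed with the library left out, so single libraries decide it. The log2 fold change of Gm34945 ran between -0.81 (without BSA replicate 1) and -0.49 (without BSA replicate 2). The share of all genes passing in such fits is not given here, so they show nothing particular to the lncRNAs. At an unadjusted p under 0.05 alone, 8 lncRNAs (3.36%) were called, against 5.64% of all genes tested. Of these, 2 were higher in AGEs (0.84%, background 3.43%) and 6 lower (2.52%, background 2.21%). After Benjamini-Hochberg adjustment over all genes tested, 0 lncRNAs had an adjusted p under 0.05 with edgeR (smallest 0.848), and 0 with DESeq2 or limma-voom. The share past the threshold was under that of all genes tested and near that of the protein-coding genes at the same limit. The share at an unadjusted p under 0.05 alone was under the background, and its lower part was near it.

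**Figure D3:**
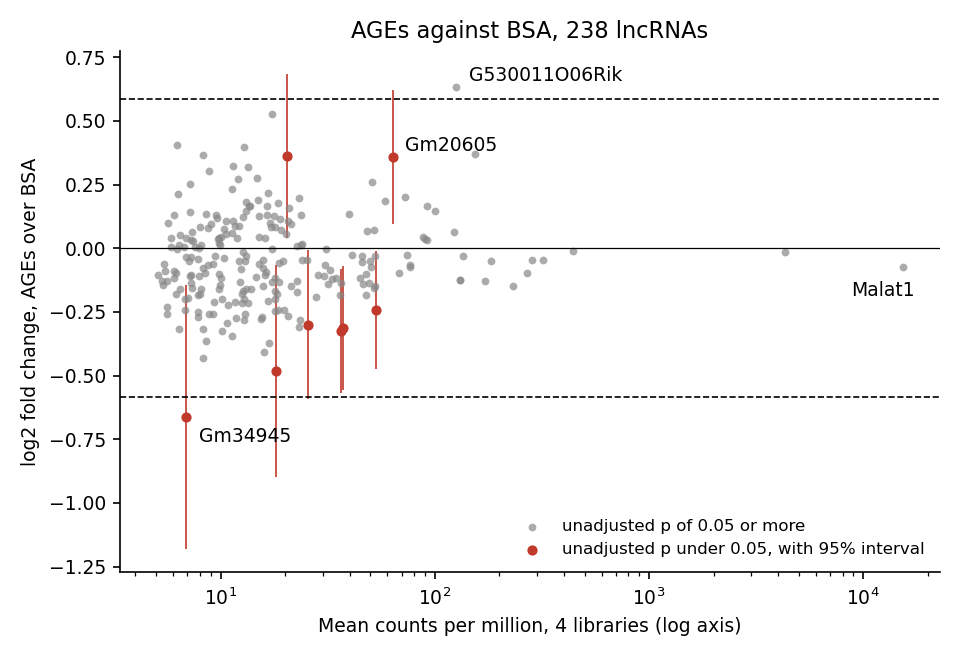
Log2 fold change, AGEs over BSA (vertical axis), against mean CPM (horizontal log axis) of the 238 lncRNAs; red points have an unadjusted p under 0.05 and carry their 95% interval, and dashed lines mark 1.5-fold. Gm34945 is the red point beyond a dashed line, and G530011O06Rik lies beyond the upper one without passing the test.

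Most changes were small, and the intervals bound many of them. The median of the absolute log2 fold change was 0.13 for the 238 lncRNAs, 0.10 for the protein-coding genes at the same limit and 0.34 for the other lncRNAs tested. The log2 fold changes ran between -0.66 and 0.63. For 138 lncRNAs the 95% interval lay within 1.5-fold either way, and for 232 within 2-fold. The standard error had a median of 0.10 for the 39 lncRNAs with a mean of over 1000 reads and 0.25 for the 65 with a mean under 200 reads. An lncRNA that was nearly absent from 1 group could not enter, because 100 reads were needed in each library.

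More of the lncRNAs lay below 0 than above it. The log2 fold change was below 0 for 148 of the 238 (62.2%), against 50.6% of all genes tested and 50.4% of the protein-coding genes at the same limit. The median log2 fold change was -0.06 for the lncRNAs and -0.0026 for all genes tested. The CPM of the groups did not overlap for 72 of the 238 (30.3%, background 35.3%). Of these, 16 were higher in AGEs (6.72%, background 17.7%) and 56 lower (23.5%, background 17.7%). No test was made of this lean, since lncRNAs of 1 library are not replicates. Without the 3 lncRNAs of the distal X and Y described below, the median was -0.06 and 1 lncRNA passed the threshold. The median was -0.05 when BSA replicate 1, the library that stood apart, was left out.

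Gm34945 (chromosome 9, 120976854 to 121000221, plus strand) is a predicted lncRNA that overlaps Ulk4, a gene of the ULK kinase family, on the opposite strand. It had 127 and 125 reads in the AGEs libraries against 136 and 207 in the BSA libraries, or 5.55 and 5.15 CPM against 7.52 and 9.38 CPM. Both AGEs libraries lay below both BSA libraries, and BSA replicate 2 was the highest. The log2 fold change was -0.66 (SE 0.24, 95% interval -1.18 to -0.15, edgeR adjusted p = 0.848). Without AGEs replicate 2 it was -0.61 and without BSA replicate 2 it was -0.49, and the call was lost in both. Ulk4 itself had a log2 fold change of -0.10 (SE 0.41). At 0.441 TPM, Gm34945 was number 13867 of all genes by TPM, near the bottom of the lncRNAs.

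The start window of Gm34945 is shown because it is the lncRNA past the threshold and its letters are repetitive; the first 50 bases of the transcript are in capitals (RefSeq, GRCm38.p6, chr9:120976604-120976903, plus strand).
Gm34945: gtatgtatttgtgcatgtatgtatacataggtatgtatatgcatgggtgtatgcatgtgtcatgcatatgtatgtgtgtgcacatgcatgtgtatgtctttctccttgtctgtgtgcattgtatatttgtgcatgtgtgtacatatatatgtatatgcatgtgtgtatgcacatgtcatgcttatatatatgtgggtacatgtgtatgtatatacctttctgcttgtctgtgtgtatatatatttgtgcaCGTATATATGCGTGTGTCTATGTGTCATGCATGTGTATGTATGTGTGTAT
Of its 300 bases, 43.7% are T and 24.3% G, and the pair TG occurs 64 times. None of the 5 motifs above was found in it.

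The smallest p of all 238 belonged to Gm20605 (chromosome 5, 137629123 to 137642896, plus strand), which overlaps Lrch4 on the same strand. It had 70.6 and 72.2 CPM in the AGEs libraries against 48.2 and 63.0 in the BSA libraries. Both AGEs libraries lay above both BSA libraries, and BSA replicate 1 was the lowest. The log2 fold change was 0.36 (SE 0.12, interval 0.10 to 0.62, edgeR adjusted p = 0.848), which is under 1.5-fold. Lrch4 had a log2 fold change of 0.14 (SE 0.12). Gm26944, which overlaps Pcf11 on the opposite strand, was the other lncRNA higher at an unadjusted p under 0.05, with 23.01 and 22.81 CPM in the AGEs libraries against 16.8 and 18.9 in the BSA libraries and a log2 fold change of 0.36 (SE 0.15, edgeR adjusted p = 0.860). Pcf11, a factor for cleavage and termination of transcripts, was at -0.04 (SE 0.10).

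The other 5 lncRNAs lower at an unadjusted p under 0.05 each overlap a coding gene on the same strand. Tbrg3, which overlaps Tcf20, had 32.1 and 32.4 CPM in the AGEs libraries against 40.1 and 40.6 in the BSA libraries. Duplicates of Tbrg3 differed by less than 1 CPM while the groups were further apart, and its log2 fold change was -0.32 (SE 0.11, edgeR adjusted p = 0.848). Gm38865, overlapping Foxp1, which encodes a transcription factor, had 32.6 and 34.0 CPM in the AGEs libraries against 41.0 and 41.8 in the BSA libraries, with a log2 fold change of -0.31 (SE 0.11). The spread within its groups was again smaller than the distance between them, and Foxp1 itself was at 0.08 (SE 0.09). Gm28043, overlapping Cmtr1, which encodes an mRNA cap methyltransferase, had 12.4 and 17.9 CPM in the AGEs libraries against 19.1 and 23.2 in the BSA libraries. Here the replicates were further apart, the log2 fold change was -0.48 (SE 0.19), and Cmtr1 was at 0.24 (SE 0.12). The log2 fold change of Gm28043 was -0.77 without AGEs replicate 2 and -0.24 without AGEs replicate 1. It was -0.61 without BSA replicate 1 and -0.33 without BSA replicate 2. Gm46436, overlapping Col4a3bp, which encodes a ceramide transfer protein, was at -0.24 (SE 0.11) and 9030607L20Rik, overlapping Chmp4b, an ESCRT-III subunit, at -0.30 (SE 0.14).

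The next by p did not pass an unadjusted p of 0.05. Gm46162, which overlaps no coding gene, had 11.7 and 15.6 CPM in the AGEs libraries against 20.01 and 16.32 in the BSA libraries. Its log2 fold change of -0.41 (SE 0.19) was -0.63 without AGEs replicate 2 and -0.22 without AGEs replicate 1. Gm13840, overlapping Pxn, which encodes the focal adhesion protein paxillin, had 14.98 and 14.29 CPM in the AGEs libraries. In the BSA libraries it had 9.67 and 12.5 CPM. Its log2 fold change of 0.40 (SE 0.19) was 0.60 without BSA replicate 2 and 0.23 without BSA replicate 1. Gm36442 over Fnip2 (-0.31, SE 0.15), Gm40448 over Prcp (-0.37, SE 0.19), LOC115490189 over Klhl5 (-0.43, SE 0.22) and Gm36193 (0.20, SE 0.11) complete the 15 with the smallest p, on the same log2 scale.

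Position relative to coding genes was not part of how the lncRNAs were chosen. In RefSeq, 156 of the 237 with coordinates overlap a protein-coding gene and 81 do not. Of the 156, 79 overlap on the same strand, 34 on the opposite strand and 43 have no strand in the annotation used. Among the 81, 13 start within 5 kb of a coding gene on the opposite strand and 56 have no coding gene overlapping them or starting within 5 kb. The lncRNAs without overlap had a median of 6.74 TPM, against 3.85 TPM for those with one. Whether reads were counted by strand is not given in the methods used here, and reads of an lncRNA and of the gene it overlaps may not be told apart.

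All 8 lncRNAs at an unadjusted p under 0.05 overlap a coding gene, as do 156 of the 237 with coordinates. They were 6 of the 79 on the same strand and 2 of the 34 on the opposite strand. Of the 43 of unknown strand and the 81 without overlap, 0 had such a p. Among all genes tested, 5.64% did, and no test was made of these few calls by position. The 79 on the same strand had a median log2 fold change of -0.10, with 55 below 0 (69.6%). Their partner genes had a median of -0.02, with 48 of 79 below 0 (60.8%). The lncRNA and its partner had the same sign in 48 of the 79 pairs, and the Pearson r of their log2 fold changes was 0.075. The median of the same-strand lncRNAs was -0.03 without AGEs replicate 2 and between -0.12 and -0.09 when another library was left out. The 34 on the opposite strand had a median of -0.03 with 18 below 0, the 43 of unknown strand -0.07 with 32 below 0, and the 81 without overlap -0.03 with 43 below 0 (53.1%). The median without overlap was -0.096 when AGEs replicate 2 was left out, then lower than the -0.034 of the same-strand lncRNAs, and -0.0020 when AGEs replicate 1 was left out. For the opposite strand it was 0.01 without AGEs replicate 2. Which position had the lowest median therefore depended on whether AGEs replicate 2 was included.

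**Figure D4:**
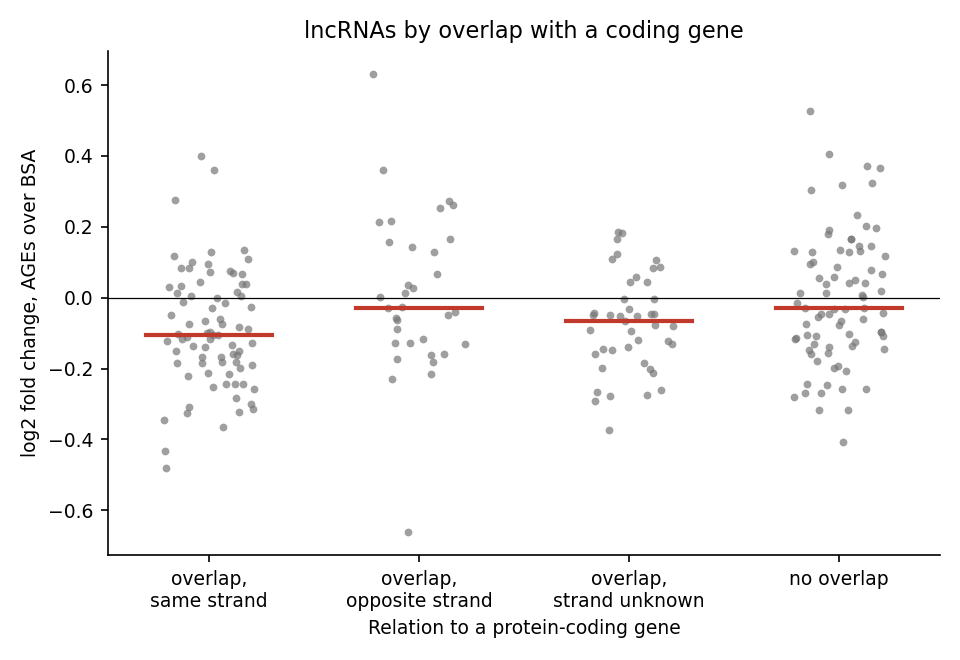
Log2 fold change, AGEs over BSA, of the lncRNAs grouped by how they lie to a protein-coding gene in RefSeq; each point is 1 lncRNA, and the red line is the group's median. The medians are -0.10 for overlap on the same strand, -0.03 for the opposite strand, -0.07 where the strand is unknown and -0.03 without overlap.

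Several of the lncRNAs carry small RNAs. Within the coordinates of the 237, a snoRNA gene was found in 9 and a miRNA hairpin on the same strand in 7. SnoRNAs guide chemical modification of ribosomal and other RNAs, and their host transcripts often begin with a run of pyrimidines, a feature shared with messages for ribosomal proteins. The list of genes known as snoRNA hosts had 8 members among the lncRNAs: Gas5, Snhg1, Snhg5, Snhg8, Snhg17, Snhg20, Zfas1 and 2410006H16Rik. Gas5 and Snhg1 each hold 8 annotated snoRNA genes, 2410006H16Rik and Zfas1 hold 3 each, Snhg5 and Snhg17 hold 2 each and Snhg8 holds 1. No annotated snoRNA gene was found within Snhg20, and 5033421B08Rik and LOC115486982, which are not on the list, hold 1 each. The 9 lncRNAs with a snoRNA gene inside had a median log2 fold change of -0.17, with 7 below 0.

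The first 30 bases are shown for the 3 hosts with a start at a C followed by at least 3 letters that are each C or T, with this run in capitals (RefSeq, GRCm38.p6; Gas5 chr1:161035166-161035195, plus strand; Snhg8 chr3:123508307-123508336, minus strand; 2410006H16Rik chr11:62602877-62602906, plus strand).
Gas5: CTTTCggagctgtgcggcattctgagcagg
Snhg8: CTCTTTggctgcgatccgcctacgagtatg
2410006H16Rik: CTCTgcggccatcatgggatcgtgctcttc
Such a start was annotated for these 3 of the 8 hosts (37.5%), for 6.51% of the lncRNAs with a window and for 4.49% of all genes with one. For Gas5 it is the second of 2 annotated starts.

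None of the 8 snoRNA hosts passed the threshold, and 6 were below 0, with a median log2 fold change of -0.13 against -0.0026 for all genes tested. The median was -0.07 without BSA replicate 1 and -0.20 without AGEs replicate 1. Gas5, which accumulates in growth-arrested cells, had 22.1 and 20.7 CPM in the AGEs libraries against 25.2 and 23.1 in the BSA libraries. Its groups did not overlap, and the log2 fold change was -0.17 (SE 0.14, edgeR adjusted p = 0.923). Snhg8 had 7.60 and 8.52 CPM in the AGEs libraries against 10.3 and 8.97 in the BSA libraries (log2 fold change -0.26, SE 0.21). Snhg1 had 8.60 and 8.15 CPM in the AGEs libraries against 11.5 and 8.52 in the BSA libraries, with overlapping groups (-0.26, SE 0.22). Snhg17 (-0.20, SE 0.19), Snhg5 (-0.10, SE 0.23) and Snhg20 (-0.10, SE 0.27) had smaller log2 fold changes, and those of Zfas1 (0.00, SE 0.23) and 2410006H16Rik (0.16, SE 0.20) were not below 0. With the hosts under 100 reads included, 20 hosts were tested, 13 were below 0, none passed the threshold and the median was -0.09.

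The miRNA carriers are shown by mature miRNAs of the hairpins found, with the seed, bases 2 to 8, in capitals (RefSeq, GRCm38.p6). Only hairpins of the annotation used that lay inside a host were found, so the list may be partial and a host may carry others. No level of a mature miRNA is given here. F630028O10Rik holds Mir223 (chrX:96242884-96242905 for the 3p arm, plus strand), A330023F24Rik holds Mir29b-2 and Mir29c (chr1:195037091-195037113 and chr1:195037600-195037621, plus strand), Mir22hg holds Mir22 (chr11:75463772-75463793, plus strand), Dleu2 holds Mir16-1 (chr14:61631936-61631957, minus strand) and Mir17hg holds Mir92-1 (chr14:115044476-115044496, plus strand).
miR-223-3p: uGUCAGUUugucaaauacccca
miR-29b-3p: uAGCACCAuuugaaaucaguguu
miR-29c-3p: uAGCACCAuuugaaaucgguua
miR-22-3p: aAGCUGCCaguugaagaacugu
miR-16-5p: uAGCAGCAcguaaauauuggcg
miR-92a-3p: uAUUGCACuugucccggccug
Of these, miR-29b-3p and miR-29c-3p share a seed. Snhg20 also holds Mir6516, and Ftx holds Mir421 and Mir374b.

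F630028O10Rik, the host of the myeloid miR-223 (chromosome X, 96239926 to 96243642), was number 6 of the lncRNAs by TPM. It had 122 and 146 CPM in the AGEs libraries against 170 and 105 in the BSA libraries. The 2 BSA libraries were the highest and the lowest, and the log2 fold change was -0.03 (SE 0.28, interval -0.85 to 0.79). A330023F24Rik, host of the miR-29 pair, had 24.5 and 23.1 CPM in the AGEs libraries against 24.4 and 22.8 in the BSA libraries and a log2 fold change of 0.01 (SE 0.14, interval -0.28 to 0.31). Mir22hg had 48.9 and 41.0 CPM in the AGEs libraries against 49.6 and 43.9 in the BSA libraries (-0.06, SE 0.12). Dleu2, from the region deleted in lymphocytic leukemia, had 20.9 and 23.1 CPM in the AGEs libraries against 20.2 and 19.3 in the BSA libraries, without overlap (0.16, SE 0.15). Mir17hg, whose miRNAs promote cell proliferation, had 15.2 and 12.5 CPM in the AGEs libraries against 11.9 and 13.1 in the BSA libraries (0.15, SE 0.19). None of the 3 listed miRNA hosts Mir22hg, Dleu2 and Mir17hg passed the threshold, and their median log2 fold change was 0.15. Over all 7 lncRNAs with a miRNA hairpin inside, the median was 0.01, with 3 below 0.

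The nuclear and chromatin lncRNAs counted 6 among the 238, and 0 passed the threshold, with 4 below 0 and a median of -0.03. Beside Malat1 and Neat1 these were Tug1, Kcnq1ot1, Firre and Ftx. Tug1, which binds chromatin-modifying complexes, had 127 and 123 CPM in the AGEs libraries against 145 and 128 in the BSA libraries. BSA replicate 1 was the highest, and the log2 fold change was -0.13 (SE 0.09, interval -0.32 to 0.07). Kcnq1ot1, which silences genes of its imprinted cluster, had 187 and 174 CPM in the AGEs libraries against 194 and 180 in the BSA libraries (-0.05, SE 0.09). Firre, an X-linked RNA of nuclear organization, had 27.9 and 21.7 CPM in the AGEs libraries against 16.6 and 26.5 in the BSA libraries (0.20, SE 0.21). Ftx, from the X-inactivation centre, was at 0.13 (SE 0.21).

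Of the macrophage and inflammation list, 5 lncRNAs were among the 238, and 0 passed the threshold, with 3 below 0 and a median of -0.03. With the listed genes under 100 reads included, 9 were tested, 7 were below 0, the median was -0.13 and 1 passed, AW112010, an interferon-inducible transcript of immune cells. AW112010 had 44 and 33 reads in the AGEs libraries against 61 and 58 in the BSA libraries, and its log2 fold change was -0.87 (SE 0.39, edgeR adjusted p = 0.879). Lncpint, induced by p53, had 37.3 and 46.3 CPM in the AGEs libraries against 31.7 and 44.4 in the BSA libraries. Replicate 2 was the higher library in both groups, and the log2 fold change was 0.13 (SE 0.16). Dnmt3aos, antisense to the DNA methyltransferase gene Dnmt3a, had 22.6 and 21.2 CPM in the AGEs libraries against 19.01 and 28.64 in the BSA libraries (-0.13, SE 0.18). Gm20559 had 103 and 91.65 CPM in the AGEs libraries against 81.8 and 91.3 in the BSA libraries (0.17, SE 0.10). Pvt1, the neighbour of Myc, was at -0.16 (SE 0.25).

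The 3 imprinted lncRNAs had a median of 0.11 and 0 past the threshold. Of the 5 imprinted lncRNAs tested, 1 passed, Meg3, a maternally expressed RNA with 17 and 18 reads in the AGEs libraries against 6 and 5 in the BSA libraries (log2 fold change 1.41, SE 0.63, edgeR adjusted p = 0.879). Airn, which silences Igf2r in cis on the paternal chromosome, had 14.3 and 12.2 CPM in the AGEs libraries against 8.90 and 12.9 in the BSA libraries. BSA replicate 1 was the lowest, the log2 fold change was 0.27 (SE 0.21), and Igf2r was at 0.04 (SE 0.08). Peg13, expressed paternally from within Trappc9, was at 0.11 (SE 0.15). The 5 lncRNAs of the p53 and growth control list (Pvt1, Dleu2, Gas5, Tug1 and Lncpint) had 0 past the threshold, 3 below 0 and a median of -0.13. Of the 7 tested from this list, Meg3 was the 1 that passed.

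The widest spread between libraries lay in 3 lncRNAs of the distal X and Y, and it lay within the AGEs group. G530011O06Rik (chromosome X, 169975043 to 169978917, minus strand) had 260 and 46.5 CPM in the AGEs libraries against 131 and 67.1 in the BSA libraries. Gm33272 (chromosome Y, 90793687 to 90806846) had 88.6 and 15.97 CPM in the AGEs libraries against 53.7 and 52.9 in the BSA libraries. LOC108168645 (chromosome Y, 90836782 to 90843932) had 33.9 and 7.04 CPM in the AGEs libraries against 18.2 and 10.3 in the BSA libraries. In all 3, AGEs replicate 1 was the highest and AGEs replicate 2 the lowest library, with the BSA libraries between them. Their log2 fold changes of 0.63 (SE 1.22), -0.03 (SE 1.10) and 0.53 (SE 1.10) give no direction for the treatment, since the 95% intervals all reach beyond 8-fold both ways. Gm33272 and LOC108168645 were named after their values had been seen.

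Other genes of the same stretch had the same highest and lowest library, while the order of the 2 BSA libraries between them differed. Mid1, a coding gene that G530011O06Rik overlaps on the opposite strand and that spans the boundary of the region shared by X and Y, had 12.1 and 3.87 CPM in the AGEs libraries against 6.80 and 7.39 in the BSA libraries. Erdr1 had 36.1 and 8.19 CPM in the AGEs libraries against 17.6 and 18.5 in the BSA libraries. Mid1-ps1, a pseudogene on the Y, had 5.41 and 1.65 CPM in the AGEs libraries against 3.04 and 3.44 in the BSA libraries. Genes elsewhere on the Y did not show this pattern. Uty had 78.4 and 76.0 CPM in the AGEs libraries against 79.6 and 78.3 in the BSA libraries, and Ddx3y had 141 and 132 CPM against 166 and 147. The X-linked gene Hccs, outside the stretch, had 28.9 and 31.7 CPM in the AGEs libraries against 27.8 and 24.9 in the BSA libraries. The 7 mesothelial and fibroblast markers, all listed, had the same highest and lowest library, with sums of 89.6 and 43.6 CPM in the AGEs libraries against 53.1 and 60.2 in the BSA libraries, and their part in these values was not tested.

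**Figure D5:**
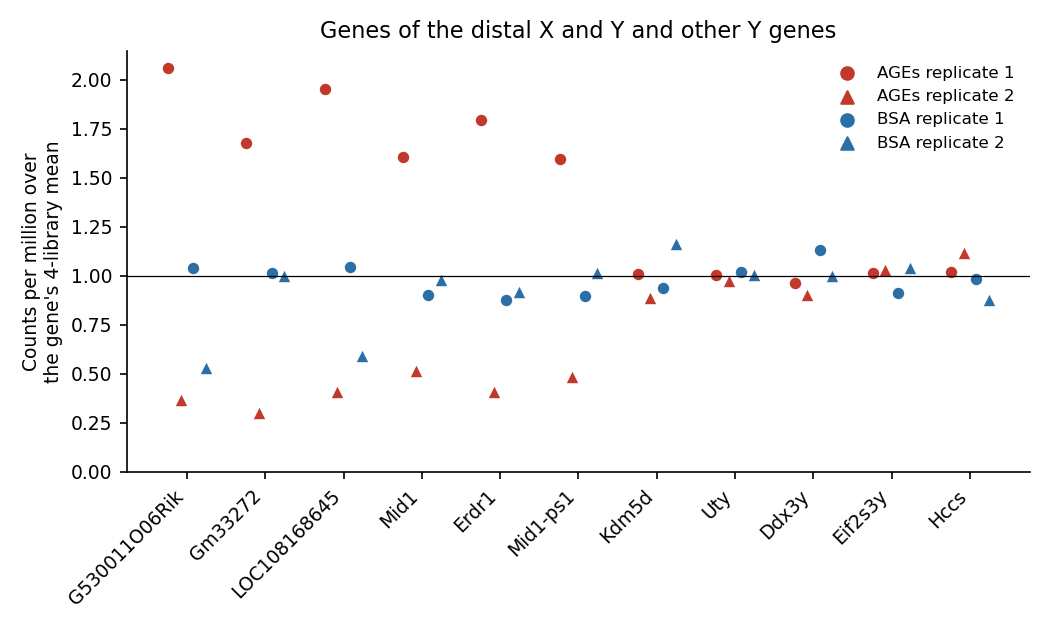
CPM of each gene in each library, divided by the gene's mean over the 4 libraries (vertical axis, from 0); red marks AGEs and blue BSA, circles are replicate 1 and triangles replicate 2. For the first 6 genes, of the distal X and Y, AGEs replicate 1 is the highest and AGEs replicate 2 the lowest library, and the points of Kdm5d, Uty, Ddx3y, Eif2s3y and Hccs lie near 1.

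G530011O06Rik is annotated on both sex chromosomes, and its 2 start windows are shown. Each window holds 250 bases before the start and the first 50 of the transcript, and the rest of the transcripts was not compared. If the transcripts are near-identical too, reads may be divided between the copies or assigned to either, which would make its level uncertain. Letters that differ between the copies in a script's end-to-end alignment are in capitals (RefSeq, GRCm38.p6; chrX:169978868-169979167 and chrY:90755001-90755300, both minus strand).
X copy: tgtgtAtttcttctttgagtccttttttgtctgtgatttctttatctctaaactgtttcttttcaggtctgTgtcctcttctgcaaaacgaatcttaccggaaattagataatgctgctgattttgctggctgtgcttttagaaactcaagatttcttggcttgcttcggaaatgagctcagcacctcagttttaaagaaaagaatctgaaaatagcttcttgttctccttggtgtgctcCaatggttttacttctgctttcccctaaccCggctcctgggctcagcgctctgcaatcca
Y copy: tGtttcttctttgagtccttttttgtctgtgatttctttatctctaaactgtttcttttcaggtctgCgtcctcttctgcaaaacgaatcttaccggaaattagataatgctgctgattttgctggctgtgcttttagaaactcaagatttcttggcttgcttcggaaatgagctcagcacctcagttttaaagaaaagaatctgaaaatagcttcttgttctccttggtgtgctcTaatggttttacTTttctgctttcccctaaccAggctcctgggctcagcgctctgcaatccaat
Of 296 aligned base pairs, 292 were identical (98.6%), with 4 substitutions and 2 inserted or missing bases. The X copy holds the CCAAT letters once.

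Over the 238 lncRNAs, the median ratio between the higher and the lower replicate was 1.14 in the AGEs group and 1.14 in the BSA group. In all, 28 differed by over 1.5-fold within a group and 6 by over 2-fold, 4 of them in AGEs and 2 in BSA. The 4 in AGEs were the 3 of the distal X and Y and LOC115487206, with 4.37 and 8.77 CPM in the AGEs libraries against 7.35 and 5.39 in the BSA libraries. The 2 in BSA were Gm46093, which had 56.6 and 53.8 CPM in the AGEs libraries against 64.0 and 28.5 in the BSA libraries, and AU022793, with 20.2 and 19.2 CPM against 11.3 and 23.3. In Gm46093 it was BSA replicate 2 that was low, and in AU022793 BSA replicate 1. Gm46093 overlaps Kansl1l on the opposite strand, and both were also named after their values had been seen.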

How the data were processed

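The 4 macrophage libraries were made from total RNA with a stranded kit that removes ribosomal RNA. The authors mapped reads to mm10 (GRCm38) with HISAT2 and calculated TPM and FPKM with StringTie. The deposited read counts were the values tested, and how reads were assigned to genes is not stated. The authors' TPM served for levels, ranks and 2 alternative tests. The deposited FPKM, log2 normalized values, log2 standard errors, mean signal, Wald score, fold changes and p-values of the authors' DESeq2 comparison were not used.

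The main test was edgeR 4.0.16 (R 4.3.3), with TMM, filterByExpr and a robust quasi-likelihood fit without a block, over all 14181 genes kept, and Benjamini-Hochberg adjustment over them. The threshold was the study's (1.5-fold, unadjusted p under 0.05). The SE is the log2 fold change over the root of F. The biological coefficient of variation was 12.9%. The fit was tested on simulated counts.

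Named lncRNAs were the 15 of highest TPM, the 15 of smallest p including those past the threshold, members of 7 lists and 3 on either side of the limit of 100 reads. The list of structural RNAs had 0 of its 6 tested genes among the 238. Gm33272, LOC108168645, Gm46093, AU022793, Gm4258, A330023F24Rik, 5033421B08Rik and LOC115486982, as well as genes used for comparison, were added after values were seen. The lncRNAs and lists were chosen with earlier results of these data known. Gene IDs were matched to RefSeq of GRCm38.p6 (15534 of 15575), the source of coordinates, strands and sequences, and the 2 copies of G530011O06Rik were aligned with Biopython 1.88.

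Alternatives were DESeq2 1.42.0, limma-voom (limma 3.58.1), other normalizations and filters, limma on log2(TPM + 1) and log2(TPM + 0.1), a block on the replicate number, the removal of single libraries, other fold and read limits and, added after seeing the data, leaving out the 3 lncRNAs of the distal X and Y or those overlapping a coding gene. Where a group was left with 1 library, it was taken to vary like the other libraries. Library totals of 17773088 to 24472926 counts put a median SE of 0.25 (log2) on lncRNAs under 200 reads.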

Additional observations from a re-analysis of the deposited data

How the results depend on the processing

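The count of 1 lncRNA past the threshold stayed at 1 with limma-voom, DESeq2, library size, upper quartile or RLE scaling, without a filter on low counts, at 50 counts in 2 libraries and without the 3 lncRNAs of the distal X and Y. It was 0 on log2(TPM + 1), at a fold limit of 2 and at an adjusted p under 0.05, and with limits of 50 reads, 200 reads or a mean of 100 reads it was 4 of 371, 0 of 140 and 3 of 292 lncRNAs. Leaving out 1 library gave 4 to 7. The share of all genes passing at these read limits or in the fits without 1 library is not given here. These counts therefore show nothing particular to the lncRNAs. On log2(TPM + 0.1) the count was again 1, but this was Gm4258 (0.61), and Gm34945 was lost in both TPM fits (-0.22 and -0.60). The median log2 fold change of the 238, -0.06, was -0.078 with library size only, -0.12 on log2(TPM + 1) and -0.15 on log2(TPM + 0.1), where the median of all genes itself moved to -0.07 and -0.09, and -0.030 for those overlapping no coding gene. The median of the snoRNA hosts was -0.23 on log2(TPM + 0.1). The median of the same-strand lncRNAs ran between -0.122 and -0.034 with 1 library left out. The difference in the share of counts was -0.022 percentage points without Malat1 and Neat1. Gm33272 reversed to 0.73 without AGEs replicate 2 and was -1.74 without AGEs replicate 1. LOC108168645 reversed to -1.01 without AGEs replicate 1 and was 1.26 without AGEs replicate 2. The cause of these moves was not tested. Of 756 values of 54 named lncRNAs under 14 alternatives, 692 kept direction and side of the threshold. Same-numbered libraries deviated with r = 0.03 over all genes and 0.14 over the lncRNAs, which with 2 pairs can neither show nor exclude pairing. With the replicate block in edgeR 1 lncRNA passed, 13 had an unadjusted p under 0.05 and 0 an adjusted one (smallest 0.316). The share of all genes called under the block is not given here, so the 13 show nothing particular to the lncRNAs. The median with the block was -0.06. A GC correction was not run, as GC content was known for 92 of 238 (38.7%). Depth limits the lncRNAs near 100 reads, and 2 libraries per group limit every comparison.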
